A study of Homo sapiens with 4 samples.

Results

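CEACAM1, CEACAM5, CEACAM6, CEACAM7 and CEACAM19 are 5 of the 61544 genes in a count table of human colorectal cancer cells, chosen by symbol as carcinoembryonic antigen-related cell adhesion molecules. All 5 were found through their Ensembl identifiers and the symbols of GENCODE 44 on hg38. RNA was sequenced from HT29 and HCT116, established lines of epithelial origin, each grown in the same serum-supplemented DMEM/F-12 medium, as 1 control library and 1 library made after 24 h with LPS (lipopolysaccharide, a lipid of the Gram-negative cell wall) at 1 ug/mL. HT29 without LPS, HT29 with LPS, HCT116 without LPS and HCT116 with LPS were therefore 4 groups of 1 library, and no condition had a repeat culture. Total counts ran from 19105058 to 21268959, and transcripts of the mitochondrial genome took 3.75% and 4.29% of the counts in HT29 without and with LPS, and 5.01% and 7.16% in HCT116.

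CEACAM proteins are cell surface members of the immunoglobulin superfamily that bind each other between neighbouring cells, and several are used as receptors by gut bacteria. CEACAM5 is the carcinoembryonic antigen measured in the blood of patients with colorectal cancer, and CEACAM6 is its close relative, known as a receptor for adherent-invasive Escherichia coli in the ileum. Both are held in the membrane by a glycosylphosphatidylinositol (GPI) anchor, as is CEACAM7, a protein of the apical surface of mature colonocytes. CEACAM1 crosses the membrane and can carry an inhibitory cytoplasmic tail that recruits the phosphatases SHP-1 and SHP-2, while CEACAM19 is a less studied transmembrane relative.

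All 5 genes lie on the long arm of chromosome 19. CEACAM7 (chr19:41673303-41706976, minus strand) and CEACAM5 (chr19:41708585-41730433, plus strand) are transcribed away from each other, with a gap of 1609 bases between the gene models. CEACAM6 (chr19:41750977-41772211, plus strand) follows CEACAM5. CEACAM1 (chr19:42507304-42561234, minus strand) and CEACAM19 (chr19:44662278-44684359, plus strand) lie further towards the telomere. RefSeq on GRCh38.p14 gave the 250 bases before the transcript start for 4 of the 5 members. The RefSeq starts differ from those of the gene models. The windows of CEACAM1, CEACAM6 and CEACAM7 lie inside the gene models given above, and that of CEACAM5 spans its start. They are printed here so that the letters of the start regions of these 4 members can be compared. Each is read 5′ to 3′ on the strand of the gene, and capitals mark an E-box (CACGTG, the same on both strands) or a GC box (GGGCGG or its reverse complement).
CEACAM5 (chr19:41708376-41708625, plus strand): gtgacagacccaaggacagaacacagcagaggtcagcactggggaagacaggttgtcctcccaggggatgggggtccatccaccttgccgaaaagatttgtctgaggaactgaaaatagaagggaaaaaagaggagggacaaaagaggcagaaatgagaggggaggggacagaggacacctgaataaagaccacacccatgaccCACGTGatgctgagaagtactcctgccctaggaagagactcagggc
CEACAM6 (chr19:41755280-41755529, plus strand): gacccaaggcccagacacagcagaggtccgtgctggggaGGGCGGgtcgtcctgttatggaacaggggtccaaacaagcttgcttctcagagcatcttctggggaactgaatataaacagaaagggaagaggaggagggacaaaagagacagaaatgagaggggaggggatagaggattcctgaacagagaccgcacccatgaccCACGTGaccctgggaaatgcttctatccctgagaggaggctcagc
CEACAM1 (chr19:42528482-42528731, minus strand): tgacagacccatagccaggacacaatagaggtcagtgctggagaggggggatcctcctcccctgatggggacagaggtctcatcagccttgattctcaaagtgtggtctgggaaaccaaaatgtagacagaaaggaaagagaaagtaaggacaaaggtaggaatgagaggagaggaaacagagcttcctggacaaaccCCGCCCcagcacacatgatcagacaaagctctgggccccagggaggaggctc
CEACAM7 (chr19:41688271-41688520, minus strand): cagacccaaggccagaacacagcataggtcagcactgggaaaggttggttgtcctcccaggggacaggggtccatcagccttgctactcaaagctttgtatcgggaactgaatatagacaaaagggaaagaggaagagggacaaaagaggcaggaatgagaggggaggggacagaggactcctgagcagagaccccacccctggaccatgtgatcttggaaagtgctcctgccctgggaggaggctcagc

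In a global alignment of these windows, identity was 80.5% between CEACAM5 and CEACAM7, 79.9% between CEACAM6 and CEACAM7 and 74.6% between CEACAM5 and CEACAM6. CEACAM1 was the least alike, with 66.2% identity to CEACAM5 and 71.9% to CEACAM7. The E-box occurred once in CEACAM5, with its first base at position -46 from the start, and once in CEACAM6, at position -45. Neither CEACAM1 nor CEACAM7 held these letters. E-boxes are bound by factors such as USF1 and USF2, and 6.34% of all 35116 RefSeq windows of this length held one. The GC box, a site type bound by SP1, occurred once each in CEACAM6 and CEACAM1 and in 42.6% of all windows. The letters TTTATG, a CDX-type site, were in none of the 4 windows and in 9.64% of all windows. Each motif was searched on both strands, and a match describes letters only.

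HT29 expressed CEACAM6, CEACAM1 and CEACAM5 at clear levels in both of its libraries, whereas HCT116 had no read of CEACAM5, CEACAM6 or CEACAM7 and few reads of CEACAM1. CEACAM19 was low in both lines. CEACAM6 had 1181 counts in untreated HT29, 1691 in LPS-treated HT29 and 0 in each HCT116 library. CEACAM5 had 428 and 490 counts in HT29 and 0 in each HCT116 library. CEACAM1 had 1072 and 1296 counts in HT29, against 21 and 50 in HCT116, so that both HT29 values lay far above both HCT116 values. For these 3 genes both HT29 libraries lay above both HCT116 libraries, as they did in CPM for 43.4% of the 14516 genes tested below.

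CEACAM7 had 5 counts in untreated HT29, 9 in LPS-treated HT29 and 0 in each HCT116 library. A count of 0 is compared here through a floor of 3 counts per library, which is 0.133 CPM (counts per 1e6 of the TMM-scaled library) in the HCT116 control and 0.145 CPM in HCT116 with LPS. HT29 had 0.277 and 0.453 CPM of CEACAM7, and the exact Poisson 95% interval of the control value, 0.0900 to 0.647 CPM, includes that floor. CEACAM19 had 65 and 68 counts in HT29, against 89 and 114 in HCT116, and it was the only member whose HT29 values both lay below the HCT116 values.

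**Figure D1:**
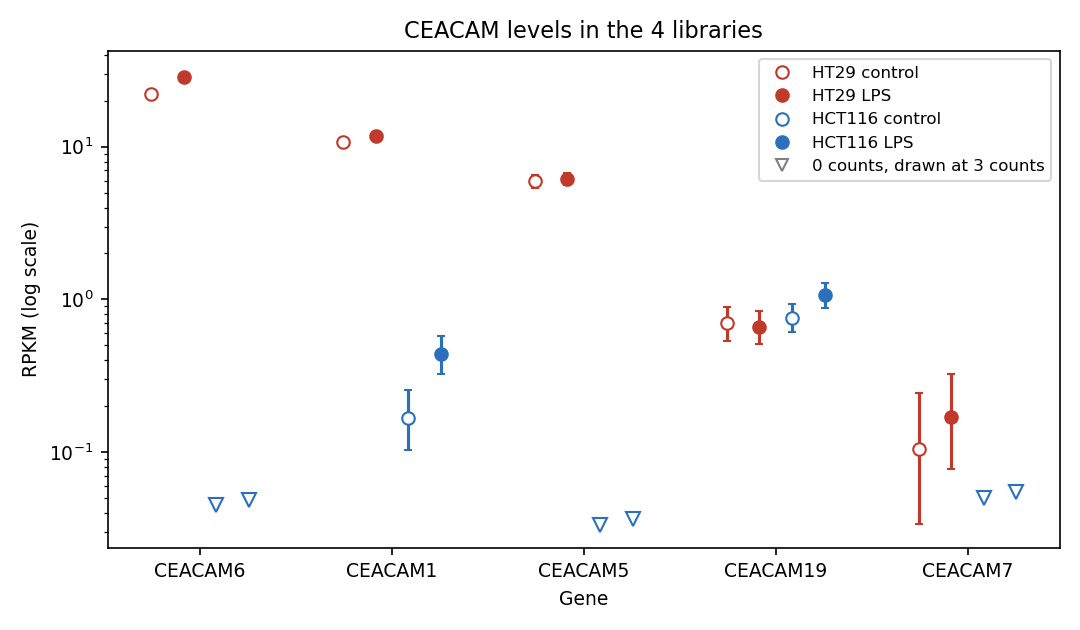
RPKM of the 5 CEACAM genes on a log axis in each of the 4 libraries, with exact Poisson 95% intervals as bars, open circles for controls and filled circles for LPS. The HT29 points (red) of CEACAM6, CEACAM1 and CEACAM5 lie between 5.95 and 28.8 RPKM, while HCT116 (blue) has triangles, drawn at 3 counts, for the genes with 0 counts, and CEACAM19 is near 1 RPKM or below in all 4 libraries.

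Levels were set side by side between genes as RPKM, the CPM per kilobase of all exons of the gene in the deposited length column. In the HT29 control CEACAM6 had 22.2 RPKM, CEACAM1 10.8, CEACAM5 5.95, CEACAM19 0.697 and CEACAM7 0.105 RPKM. With LPS the values were 28.8, 11.8, 6.19, 0.662 and 0.171 RPKM in the same order. No neighbours in this order overlapped within counting error. CEACAM6 was 2.06 times CEACAM1 in the control (95% interval 1.89 to 2.24), CEACAM1 was 1.81 times CEACAM5 (1.61 to 2.03), and CEACAM19 was 6.67 times CEACAM7 (2.72 to 21.2). These intervals are exact Clopper-Pearson intervals, and like all intervals here they cover counting error only.

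CEACAM6 made up 55.9% of the summed RPKM of the 5 genes in the HT29 control and 60.5% with LPS, CEACAM1 27.1% and 24.8%, and CEACAM5 15.0% and 13.0%. The ratio of CEACAM6 to CEACAM5 was 3.72 in the control (3.33 to 4.17) and 4.65 with LPS (4.21 to 5.16), so the 2 intervals did not overlap. Among all protein-coding genes of the table, the HT29 control level of CEACAM6 was at percentile 89.0, that of CEACAM1 at 79.3, that of CEACAM5 at 70.2 and that of CEACAM19 at 49.0.

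In HCT116 the order differed, and CEACAM19 was the most abundant member. CEACAM19 had 0.761 RPKM in the control and 1.06 with LPS, against 0.168 and 0.437 RPKM of CEACAM1. CEACAM19 was 4.53 times CEACAM1 in the control (2.79 to 7.67) and 2.44 times with LPS (1.73 to 3.47). It took 81.9% and 70.9% of the summed RPKM there, a sum that was itself small.

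HT29 was compared with HCT116 by the quasi-likelihood test of edgeR, with LPS as a term, so that the control and LPS libraries of a line stood in for replicates and 1 residual degree of freedom was left. Among the 14516 genes that averaged 1 CPM or more, 38.0% were called higher in HT29 and 38.6% lower (76.6% either way) at an adjusted p under 0.05. The 3 members called higher are read against that share, and by size. CEACAM7 did not reach the minimum. CEACAM5 and CEACAM6 reached it only through HT29 and were therefore bound to differ, so their values are given as a description with no p. Both stood among the 127 tested genes (0.875%) with 0 counts in both HCT116 libraries.

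CEACAM6 was higher in HT29, with a mean of 75.3 ± 13.9 CPM (SD over its control and LPS libraries, n = 2), 519.7-fold the HCT116 floor of 3 counts. CEACAM5 was higher in HT29, with 24.2 ± 0.669 CPM (SD, n = 2 libraries), 167-fold that floor. CEACAM1, which had reads in all 4 libraries, had 62.4 ± 4.12 CPM in HT29 and 1.67 ± 1.05 in HCT116 (SD, n = 2 libraries each), a ratio of 37.3 and a fitted log2 difference of 5.25 (standard error 0.19, adjusted p = 1.84e-15, edgeR). The log2 difference was 6.05 without the HCT116 library with LPS and 4.68 without the HCT116 control, each with no LPS term. CEACAM1 ranked 336 of the 14516 genes from the HT29 end of the fitted log2 differences. CEACAM19 had 3.51 ± 0.127 CPM in HT29 and 4.72 ± 1.11 in HCT116 (SD, n = 2 libraries each), a log2 difference of -0.41 (standard error 0.30, adjusted p = 0.215, edgeR), which did not pass the test. These p-values speak of these libraries, since no line had a repeat culture of the same condition.

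**Figure D2:**
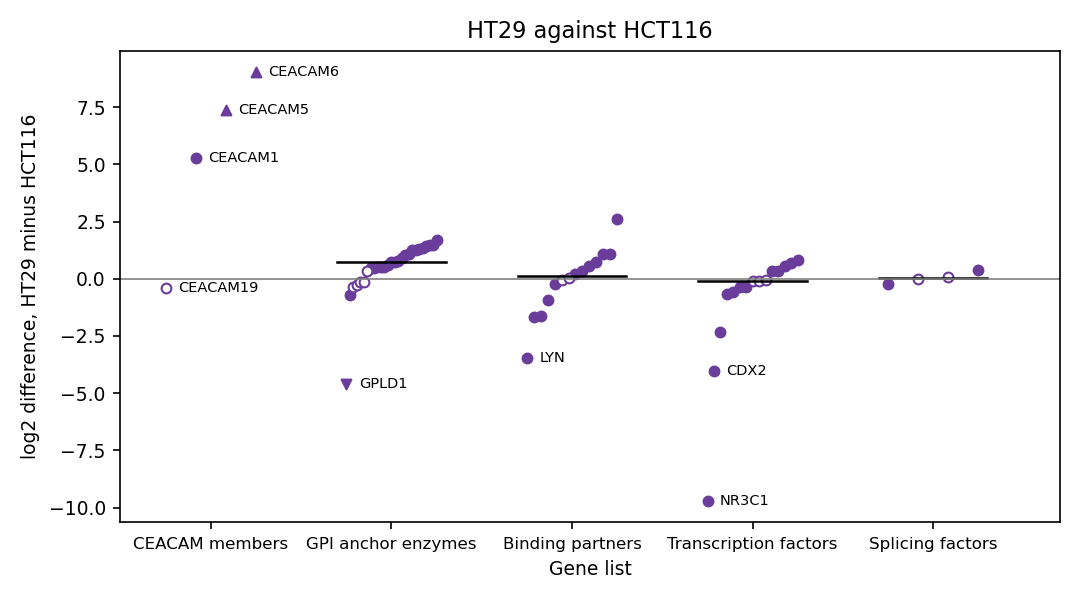
Log2 difference of HT29 minus HCT116 for the tested CEACAM members and 4 lists of related genes, with filled symbols for an adjusted p under 0.05 in edgeR's test and black lines at the list medians. Triangles are sizes against the floor of 3 counts, for genes with 0 counts in both libraries of a line. These are CEACAM5 and CEACAM6 in HCT116 and GPLD1 in HT29, and NR3C1 rests on 1 and 0 counts in HT29.

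Other genes around the CEACAM cluster were read in both lines. Of 49 protein-coding genes overlapping the span from 400 kb before to 1200 kb after the CEACAM5 start, 12 are CEACAM or PSG (pregnancy-specific glycoprotein) genes and 25 of the others were tested. Of these 25, 11 were higher in HT29, 8 were lower and 6 were not called, and their log2 differences had a median of 0.19 and reached at most 1.06 (LIPE, hormone-sensitive lipase). These 25 were called about as often as all genes tested (38.0% higher and 38.6% lower). CEACAM1, at 5.25, lay above the highest of the 25. RPS19, a ribosomal protein gene between CEACAM6 and CEACAM1 and named after its values were seen, had 21763 and 21742 counts in HT29, against 20681 and 17412 in HCT116. RPS19 was called higher in HT29 (log2 difference 0.39, standard error 0.07, adjusted p = 6.69e-05, edgeR). The median log2 difference over all genes tested was -0.02.

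**Figure D3:**
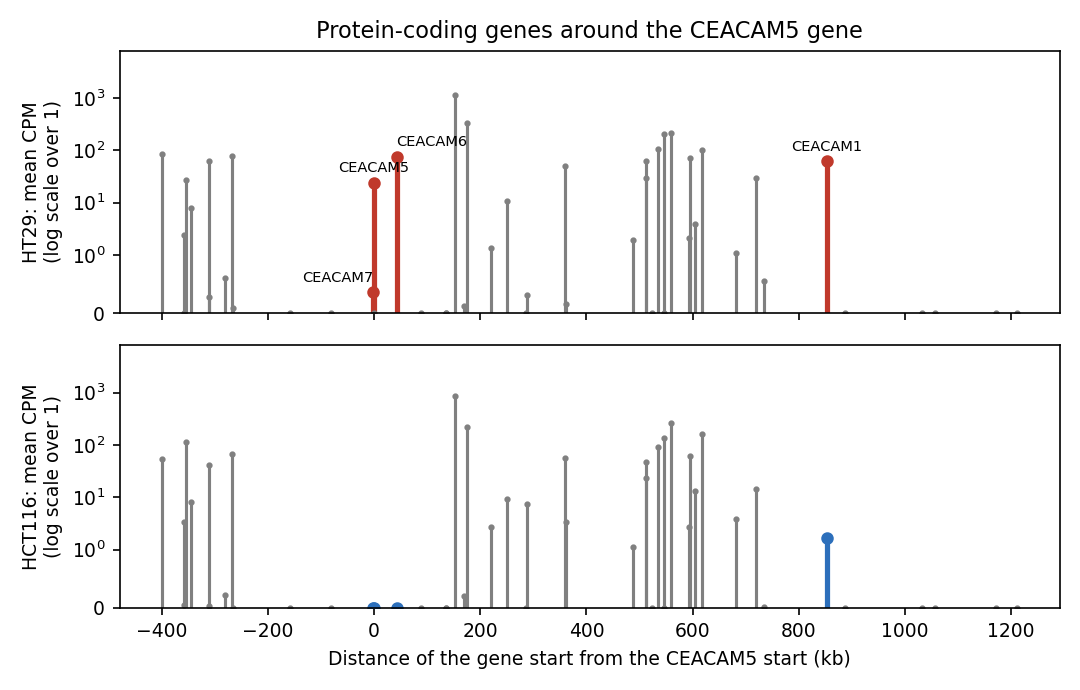
Mean CPM of protein-coding genes by the distance of their start from the CEACAM5 start in kb, in HT29 (top, CEACAM members in red) and HCT116 (bottom, CEACAM members in blue), on an axis that is linear below 1 CPM and logarithmic above. Most neighbours (grey) have similar heights in both panels, while CEACAM5, CEACAM6 and CEACAM7 are at 0 in HCT116 and CEACAM1 falls from 62.4 to 1.67 CPM.

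Immediate neighbours on the chromosome were mostly silent. CEACAM4 and CEACAM3, which flank the CEACAM7 to CEACAM6 stretch, CEACAM8 beside CEACAM1, and CEACAM16 beside CEACAM19 had 0 counts in all 4 libraries. CXCL17, a mucosal chemokine gene on the other side of CEACAM1, had 7 and 14 counts in HT29, against 1 and 0 in HCT116. PVR, the poliovirus receptor gene that overlaps the start of CEACAM19 on the same strand, was abundant, with 6059 and 7004 counts in HT29, against 1779 and 1519 in HCT116, and was higher in HT29 (log2 difference 2.18, standard error 0.07, adjusted p = 2.39e-16, edgeR). PVR shares 121 of the 5173 exon bases of CEACAM19 (2.34%). Its part in the low CEACAM19 count was not tested.

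The remaining family was close to absent. Of the other 7 protein-coding CEACAM genes, 5 had 0 counts in every library and only CEACAM18 reached 10 counts, with 16 and 11 in HT29 and 0 in HCT116. Of the 10 PSG genes, which are expressed in the placenta, 9 had 0 counts everywhere and the highest count of any was 1. CEACAM8, the marker of granulocytes in this family, was at 0, and none of the 12 neutrophil markers reached a mean of 1 CPM, their summed level being 0.61 to 1.9 CPM per library. CEACAM16-AS1 (ENSG00000266903) is a long non-coding RNA antisense to CEACAM19 that shares no exon base with it. It had 73 and 70 counts in HT29 and 4 in each HCT116 library (log2 difference 4.31). CEACAM16-AS1 reached the minimum of 1 CPM only through HT29, so this is a description with no p.

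The members are paralogs, so their reads could in principle be assigned to the wrong gene. No 100-base window of the exons of any member occurred, in exact letters, in the exons of another annotated gene. With 50-base windows the share found elsewhere was 3.03% for CEACAM1, 2.99% for CEACAM5, 4.21% for CEACAM6, 0.777% for CEACAM19 and 0% for CEACAM7. In the HCT116 libraries, where CEACAM1 and CEACAM19 had reads, the other 3 members had 0. An annotated read-through gene (ENSG00000267881) covers 139 of the 3986 exon bases of CEACAM5 and 138 of the 2956 of CEACAM6, and it had 0 counts in all libraries. How reads in such shared bases were counted is not given in the sources used here.

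With LPS, CEACAM6 had the largest ratio to control among the measured members in HT29. CEACAM6 had 65.5 CPM in the control and 85.2 with LPS, a log2 ratio of 0.38 with an exact 95% interval of 0.27 to 0.49, which lay above 0 and below 0.58, the size threshold that the study's methods give for arrays. CEACAM1 had 59.4 and 65.3 CPM, a log2 ratio of 0.13 (0.02 to 0.25). CEACAM5 had 23.7 and 24.7 CPM, a log2 ratio of 0.06 (-0.13 to 0.25), and CEACAM19 had 3.60 and 3.42 CPM, a log2 ratio of -0.072 (-0.59 to 0.44). None of the 4 measured members passed 0.58, beside 3.5% of 13201 genes above it and 2.7% below -0.58. CEACAM7, with 5 and 9 counts, had too few for the count (log2 ratio 0.55, -1.02 to 2.63). With 1 library per condition these ratios have no replicate check and no p-value.

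In HCT116 the small CEACAM1 signal was larger in the LPS library. CEACAM1 had 0.928 CPM in the control (exact Poisson 95% interval 0.575 to 1.42) and 2.42 with LPS (1.79 to 3.18), a log2 ratio of 1.29 (0.62 to 2.19). CEACAM19 had 3.93 and 5.51 CPM, a log2 ratio of 0.48 (0.07 to 0.90). So 1 of the 2 measured members was above 0.58, beside 3.56% of 14337 genes above it and 2.34% below -0.58. Ratios this large were more frequent at such depths, since 16.9% of the 2180 genes with a mean of 1 to under 3 CPM in HCT116 were above 0.58. CEACAM1 ranked 36 from the highest among those 2180 genes, with 1.7% of them at or above its ratio, which rests on 21 and 50 counts in 1 library each. The HCT116 library with LPS also had the highest mitochondrial share of the 4, and its part in these values was not tested.

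**Figure D4:**
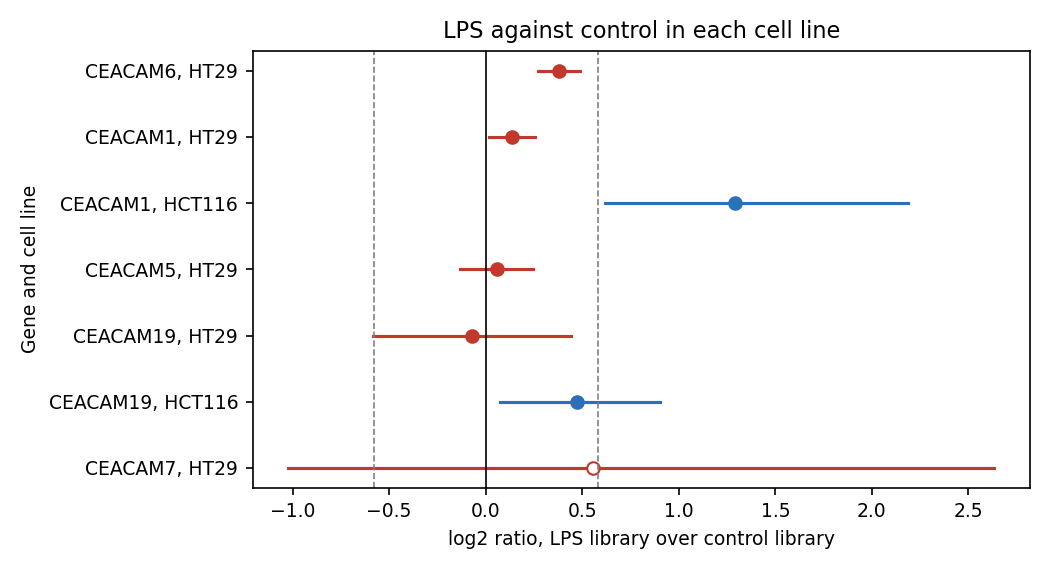
LPS against control, as a log2 ratio, for each CEACAM gene with reads, in HT29 (red) and HCT116 (blue), with exact 95% counting intervals as bars, dashed lines at 0.58 and -0.58, and an open point for CEACAM7, whose mean is under 1 CPM. CEACAM1 in HCT116 is the only filled point beyond the dashed lines, at 1.29, and CEACAM6 in HT29 lies at 0.38 with an interval clear of 0.

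Across both lines, no member was called for LPS by edgeR's quasi-likelihood test with the cell line as a term, where 0.22% of the 14516 genes were called (0.124% higher with LPS and 0.0964% lower). CEACAM6 had a log2 difference of 0.38 (standard error 0.14, unadjusted p = 0.0155, adjusted p = 0.48), and it was the 1 member with an unadjusted p under 0.05, beside 7.58% of all genes. CEACAM1 had 0.34 (standard error 0.17, adjusted p = 0.686), CEACAM19 0.22 (standard error 0.30, adjusted p = 0.939) and CEACAM5 0.06 (standard error 0.24, adjusted p = 0.987). The values of CEACAM5 and CEACAM6 come from HT29 alone. DESeq2 called no member, and its adjusted p was not available for any of them. Whether LPS acted differently on CEACAM1 in the 2 lines was not tested, since that contrast leaves no residual degree of freedom.

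Genes of the GPI anchor, by which CEACAM5, CEACAM6 and CEACAM7 are held, were mostly higher in HT29. The list holds enzymes that build and attach the anchor and some that cut it. Of 27 tested, 20 were higher and 2 lower, beside 38.0% and 38.6% of all genes, with a median log2 difference of 0.74. PGAP6, which cleaves GPI-anchored proteins, had 4827 and 5317 counts in HT29, against 1892 and 1712 in HCT116 (log2 difference 1.69). PIGC, a subunit of the enzyme of the initial step, had 515 and 621 counts against 249 and 213 (log2 difference 1.49). GPLD1, a phospholipase that cuts the anchor, went the other way, with 0 counts in HT29, against 85 and 88 in HCT116. Its HCT116 mean was 24.1-fold the HT29 floor of 3 counts. With LPS none of the 26 measured in HT29 or the 27 in HCT116 passed 0.58 in size. Of all genes, 3.5% in HT29 and 3.56% in HCT116 were above 0.58, and 2.7% and 2.34% below -0.58.

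Binding and signalling partners of CEACAM1, CEACAM5 and CEACAM6 were called in both directions. Of 14 tested, 7 were higher in HT29 and 5 lower, beside 38.0% and 38.6% of all genes, with a median log2 difference of 0.13 that became -0.02 with library size alone. S100A10, a partner of annexin A2, had 12684 and 13899 counts in HT29, against 2424 and 2501 in HCT116 (log2 difference 2.62). The kinase gene LYN had 62 and 102 counts in HT29, against 1119 and 951 in HCT116 (log2 difference -3.47), and PTPN6, which encodes the phosphatase SHP-1 of the CEACAM1 tail, had 396 and 470 against 1511 and 1642 (log2 difference -1.68). None of the 14 measured partners passed 0.58 in size with LPS in either line, beside the same shares of all genes as for the GPI list.

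Of 15 tested transcription factors known or proposed to act on CEACAM promoters, 5 were higher in HT29 and 7 lower, beside 38.0% and 38.6% of all genes, with a median log2 difference of -0.12. CDX2, an intestinal homeobox factor, was lower in HT29, with 18 and 39 counts against 474 and 572 in HCT116 (log2 difference -4.05). SMAD4, the shared mediator of TGF-beta signals, had 182 and 269 counts against 1360 and 1173 (log2 difference -2.31). NR3C1, which encodes the glucocorticoid receptor, a subject of the study, had 1 and 0 counts in HT29, against 615 and 560 in HCT116. USF2, which binds E-boxes, was higher in HT29, with 2618 and 2943 counts against 1853 and 2044 (log2 difference 0.70).

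SP1, which binds GC boxes, did not pass the test between the lines (log2 difference -0.03, standard error 0.07, adjusted p = 0.644, edgeR). It had 1966 counts in untreated HT29 and 2684 in LPS-treated HT29, against 2575 and 2814 in HCT116, log2 ratios of 0.31 and 0.26 (adjusted p = 0.11 across both lines, edgeR). CDX2 was the only 1 of 14 measured factors past 0.58 with LPS in HT29, and none of 15 passed it in HCT116. Its log2 ratio of 0.91 rests on the few counts given above, in 1 library each. Of all genes, 3.5% in HT29 and 3.56% in HCT116 were above 0.58, and 2.7% and 2.34% below -0.58. Of the splicing factors known to act on exon 7 of CEACAM1, HNRNPL was higher in HT29 (log2 difference 0.39), HNRNPM was lower (-0.23) and HNRNPA1 (0.06) and PTBP1 (-0.02) did not pass the test. The call of HNRNPM was lost without HT29 with LPS (log2 difference -0.16, adjusted p = 0.183, edgeR) and without the HCT116 control (-0.17, adjusted p = 0.154, edgeR). The table gives counts per gene, so the forms of CEACAM1 with long and short tails cannot be told apart.

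Other genes of mature colonocytes, the cells in which CEACAM7 is known, were mostly scarce too. Of 14, only 2 were tested, CA2 (carbonic anhydrase 2), which did not pass (log2 difference 0.14), and SLC26A2, a sulfate transporter that was lower in HT29 (105 and 95 counts against 882 and 773, log2 difference -2.85). CDHR5, a brush border cadherin, had 6 counts in untreated HT29 and 52 in LPS-treated HT29, against 6 and 3 in HCT116. General epithelial markers had summed levels of 18826 to 20186 CPM in HT29 and 5445 to 5502 CPM in HCT116. Of the 11 markers, 1 had 0 counts in every library. Of 10 tested, 9 were higher and 1 lower in HT29, beside 38.0% and 38.6% of all genes. All 10 averaged 1 CPM or more in HT29 but only 8 did in HCT116, so the others reached the minimum only through HT29. Villin (VIL1), a brush border protein, had 2637 and 3004 counts in HT29, against 4 and 0 in HCT116. Of 10 fibroblast and endothelial markers 2 were tested, and their summed level was 5.64 to 7.71 CPM in HT29 and 101 to 102 CPM in HCT116, most of it COL1A1. Of 12 lymphocyte and macrophage markers 2 were tested, with 6.37 to 8.26 CPM in sum per library. The part of these markers in the CEACAM differences was not tested.

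Genes with the profile most like each tested member were sought by the Euclidean distance between log2 CPM values over the 4 libraries, each gene centred on its mean. For CEACAM5 they were GJB1, a connexin (distance 0.04, with 426 and 504 counts in HT29 and 0 in HCT116), TNFSF15, a TNF family cytokine (0.05), and CHRM3, a muscarinic receptor (0.13). For CEACAM6 they were HCAR1, the lactate receptor (0.32), TMEM30B (0.35) and GCNT3, a mucin glycosyltransferase (0.45). For CEACAM1 they were PYCARD, the inflammasome adaptor, with 236 and 269 counts in HT29, against 3 and 8 in HCT116 (0.17), PLA2G4F (0.19) and GSAP (0.19). For CEACAM19 they were ENSG00000261884 (0.05), DDX39B (0.08) and TMEM91 (0.08). With 4 libraries and 127 genes at 0 in both HCT116 libraries, a short distance describes the shared pattern of high and absent values.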

How the data were processed

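RNA of 4 libraries was sequenced as pairs of reads. As the study's methods and the labels' processing fields state, the authors trimmed reads (cutadapt 1.9, Trimmomatic 0.39), mapped them on hg38 (HISAT2 2.1.0) and assigned them to GENCODE genes (featureCounts 2.0.1). The deposited values are raw counts beside a gene length column. How strand and multiply aligned reads were treated was not given in these sources. The study used edgeR.

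Here counts were scaled by TMM in edgeR 4.0.16 (R 4.3.3), and the quasi-likelihood test covered the 14516 genes averaging 1 CPM or more, with Benjamini-Hochberg adjustment over all of them. Log2 ratios used a prior count of 2. DESeq2 1.42.0 was an alternative. On simulated counts for the comparison of the lines (13747 genes), 80.9% of genes changed by 0.58 (log2) were recovered. Of those changed by 1, 95.7% were recovered, and 7 of 180 calls were false. The simulation gave every gene the same dispersion and left most genes unchanged, whereas 76.6% of genes were called in the data. These rates therefore describe the simulation only. The members and lists were chosen with earlier results of these data known. Besides the members, the text names list genes with the largest differences (at most 3 a list and comparison), other CEACAM genes with at least 10 counts, neighbours and the 3 genes nearest in profile.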

Additional observations from a re-analysis of the deposited data

Results flagged for a closer look

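CEACAM19 had LPS log2 ratios of opposite sign in the 2 lines, -0.072 in HT29 (65 and 68 counts, interval -0.59 to 0.44) and 0.48 in HCT116 (89 and 114 counts, interval 0.07 to 0.90). The HT29 interval includes 0 and overlaps that of HCT116, and the difference was not tested because each line had 1 library per condition.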

How the results depend on the processing

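CEACAM1 was called higher in HT29 in all 10 alternatives, and CEACAM19 was not called in the 9 that tested it. CEACAM5 and CEACAM6, at 0 in HCT116, could not be called otherwise. The alternatives were DESeq2 size factors, library size alone, the DESeq2 test, other filters, no LPS term and each library left out. The number of members called was 3 to 3 with a library left out. The CEACAM1 log2 difference ran from 4.68 without the HCT116 control, where the HCT116 library with LPS stands alone, to 6.05 without the HCT116 library with LPS. Its adjusted p was at most 7.9e-11. Library size alone moved the median log2 difference of all genes by -0.16. It called 4596 of 14523 genes higher and 6384 lower, against 5514 and 5598 of 14516 in the main test. With it the GPI anchor list had 18 higher and 4 lower, and the transcription factor list 5 higher and 10 lower. The splicing list went from 1 to 2 lower. No member was called for LPS across both lines in any of 6 alternatives, although the calls over all genes, 32, became 14 with DESeq2 size factors, 84 with DESeq2, 24 with library size alone, 103 with no filter, 136 with a minimum of 5 CPM and 0 without the cell line term. SP1 was called as higher with LPS by DESeq2 (adjusted p = 0.00383), with no filter (0.0353) and with 5 CPM (0.0104), and was not called with other scalings (0.24 and 0.264) or without the cell line term (1). CEACAM1 in HCT116 kept a log2 ratio of 1.18 to 1.36 over other scalings and prior counts, and no HCT116 member was left with a minimum of 5 CPM. The order of levels was the same with the longest transcript as length. With 50-base windows the largest shared share was 4.21%. The LPS test over both lines held the cell line as a term and so compared LPS with control within each line. No paired analysis was possible because each group held 1 library, so replicate numbers add no pairing to that term. At this depth, 0 counts in HCT116 allow up to 0.163 CPM of CEACAM5 or CEACAM6 in the control and 0.178 CPM with LPS (upper bounds of exact Poisson 95% intervals).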

Other observations

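At the CEACAM loci, some sparse transcripts differed between the HCT116 libraries. LIPE-AS1, a long non-coding RNA antisense to CEACAM1, covers 185 of the 5527 exon bases of CEACAM1. LIPE-AS1 had 26 counts in the HCT116 control and 3 with LPS, and 10 and 9 in HT29. CEACAM22P (ENSG00000230666), a transcribed pseudogene, had 0 counts in the HCT116 control and 16 with LPS, and 2 and 1 in HT29. Each rests on 1 library per condition and on few reads, and reads of the 2 strands cannot be told apart.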
